A study of Mus musculus with 18 samples.

Results

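The retinoid receptors and binding proteins described here are 9 genes: the retinoic acid receptors Rara, Rarb and Rarg, the retinoid X receptors Rxra, Rxrb and Rxrg, the cellular retinoic acid binding proteins Crabp1 and Crabp2, and the retinol transporter Stra6. They were chosen by name through their Ensembl identifiers. All 9 were found among the 53465 gene rows, and all 9 passed the filter on low counts in every comparison. The series measured poly(A) RNA in 18 libraries from 9 mouse embryos of embryonic day 9 with 20 to 24 somites. Of these embryos, 5 were controls and 4 were double mutants (DKO) in which Meis1 and Meis2 had been deleted conditionally with Delta1Cre. Each embryo was cut into a posterior piece, made of the axial bud and its 10 to 12 most recent somites, and an anterior piece holding the older somites. The head end without somites was not sampled. The labels do not give the exact genotype of the controls or whether they carried the Cre. A Cre driven by Delta1 (Dll1) acts only in cells that express Dll1 and in their descendants, so other cells of a piece keep both genes. The stated purpose of the series was to find Meis targets that act in patterning the skeleton along the head-to-tail axis.

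Retinol enters a cell partly through STRA6 and is oxidised to retinoic acid, which the CRABP proteins bind in the cytoplasm. Retinoic acid is a ligand of the RAR proteins, nuclear receptors that bind DNA as heterodimers with RXR proteins and that recruit corepressors without ligand and coactivators with it. In the embryonic trunk, retinoic acid is made in the somites and broken down by CYP26 enzymes in the tail bud, and it is known for its part in somite formation, spinal cord differentiation and the setting of Hox expression.

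Library totals ran from 12.7 to 38.2 megacounts of expected counts, the unit in which RSEM apportions reads to genes. Expression is given as CPM, counts per megacount of a library after TMM scaling, which evens out differences in RNA make-up. Meis1 was at 125.3 ± 8.64 CPM (SD, n = 5) in anterior controls and 102 ± 9.52 CPM (n = 4) in anterior DKO, a log2 fold change of -0.30 (edgeR adjusted p = 0.123). Meis2 differed by -0.41 there (edgeR adjusted p = 0.0522). In the posterior pieces the differences were -0.55 for Meis1 (edgeR adjusted p = 0.336) and -0.52 for Meis2 (edgeR adjusted p = 0.196). DESeq2 called all 4 of these differences (adjusted p = 0.00747 and 1.31e-07 in the anterior piece for Meis1 and Meis2, 0.0444 and 0.000442 in the posterior piece). Anterior Meis2 passed in 6 of 16 alternatives, anterior Meis1 and posterior Meis2 in 2 and posterior Meis1 in 1, DESeq2 included. A count summed over a gene cannot tell a deleted exon from a kept one, so these values do not measure the deletion. Control embryo 1, labelled female, had at most 0.340 CPM of Xist and 151 and 162 CPM summed over Y-linked genes, against its label. Leaving it out is among the alternatives, and the one member whose call it changed is named with its result. The labels do not say whether embryos shared a litter, so p-values rest on the spread between these embryos only. Tests between regions and of the interaction took the pieces of an embryo as independent libraries. The embryo as a block was an alternative.

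In control embryos 7 of the 9 genes differed between the pieces, with Rarg higher in the posterior piece and Rara, Rarb, Rxra, Rxrg, Crabp1 and Crabp2 lower (edgeR quasi-likelihood test, Benjamini-Hochberg adjusted p below 0.05). Rxrb and Stra6 did not pass the test. Of all 15294 genes tested, 25.4% passed, 12.1% as higher and 13.3% as lower in the posterior piece. In the DKO embryos 6 of 9 passed, again with Rarg as the one higher gene, while 18.5% of the 15777 genes tested passed, 8.76% as higher and 9.7% as lower. The median log2 fold change of the 9 genes was -0.62 in controls and -0.67 in DKO, where the median over all genes was -0.01 and 0.01. The groups of posterior and anterior libraries did not overlap for 7 of 9 genes in either genotype, as was so for 20.1% of all genes in controls and 23.6% in DKO. Because the pieces are bulk tissue, fewer cells of a type and less RNA per cell cannot be told apart.

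**Figure D1:**
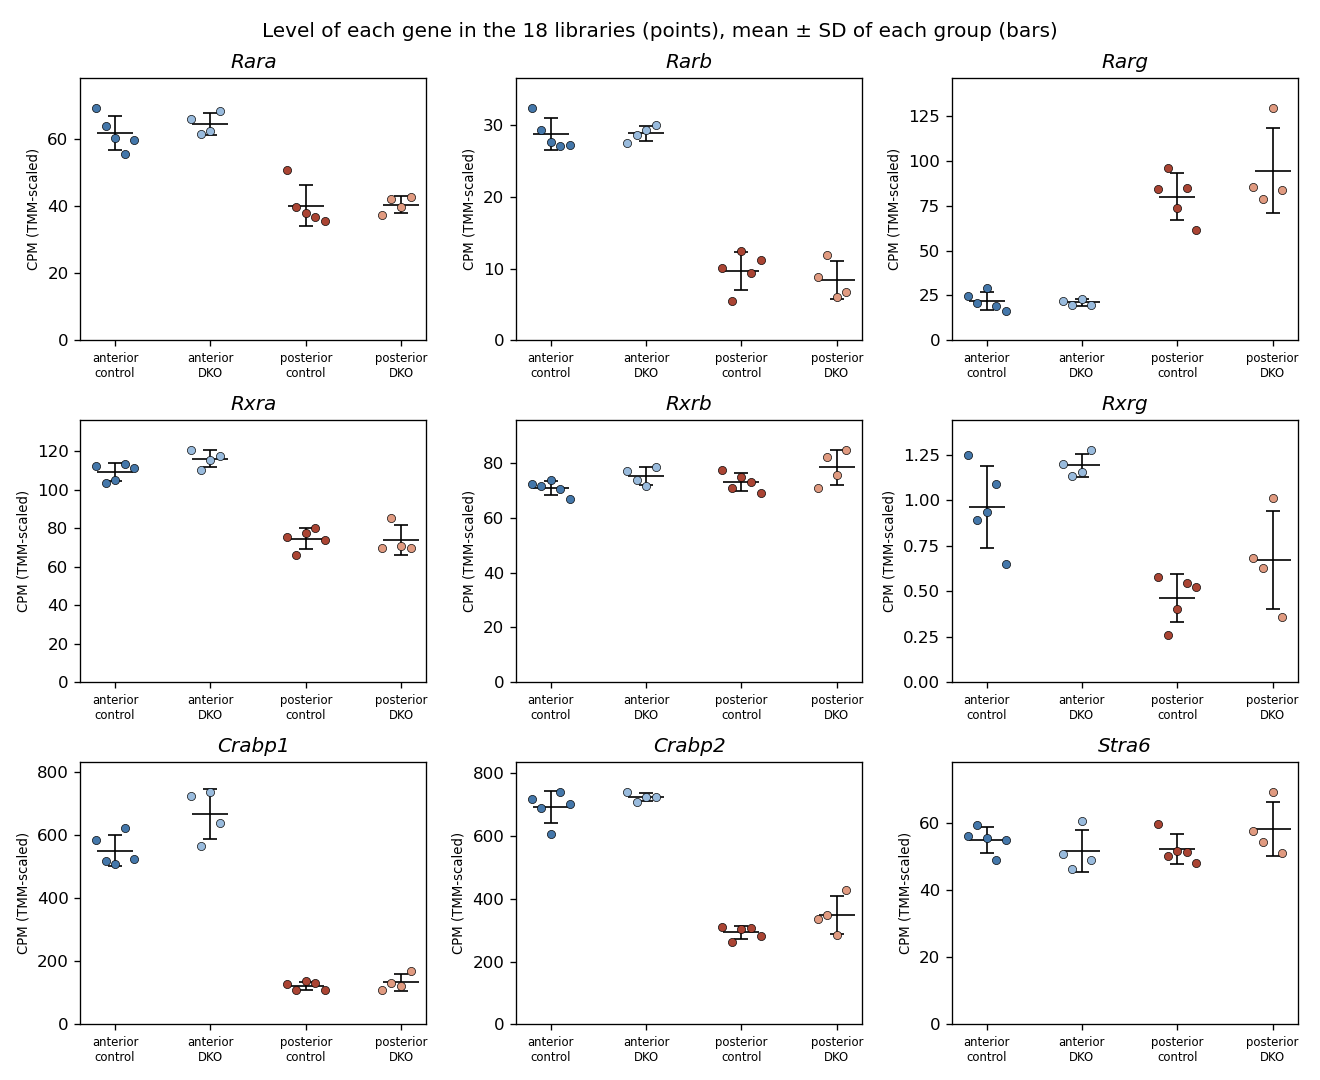
Level of the 9 genes (vertical axis, TMM-scaled CPM from 0) in each of the 18 libraries (points), by region and genotype, with the mean and SD of each group as black bars. Rarg is the one gene whose posterior points all lie above its anterior points, and the points of Rxrb and Stra6 overlap between the regions.

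The plot of levels by library shows the receptors in its first 6 panels. Rarg (ENSMUSG00000001288, chr15:102234938-102257517 of GRCm38, minus strand) encodes the gamma form of the retinoic acid receptor. In anterior controls it was at 24.8, 20.7, 29.3, 19.3 and 16.3 CPM, and in posterior controls at 84.4, 95.8, 73.9, 84.9 and 61.1 CPM. The anterior DKO libraries were at 22.2, 19.7, 23.2 and 19.5 CPM and the posterior DKO libraries at 85.5, 78.7, 129.5 and 83.6 CPM. Every posterior library was above every anterior one, and the highest value of all, in posterior DKO 3, came from an embryo with 20 somites. The posterior level was 3.64 times the anterior one in controls (95% interval 2.90 to 4.58, log2 fold change 1.87, SE 0.152, edgeR adjusted p = 2.32e-06) and 4.47 times in DKO (3.52 to 5.68, adjusted p = 1.17e-05). Rarg was higher in the posterior piece in 9 of 9 embryos.

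Rarb (ENSMUSG00000017491, chr14:16430839-16819156 of GRCm38, minus strand) encodes the beta form and is itself a classical target of retinoic acid through an element in its promoter. It had the opposite distribution. Anterior controls were at 32.5, 29.3, 27.7, 27.1 and 27.3 CPM and posterior controls at 10.2, 5.48, 12.5, 9.34 and 11.2 CPM. Anterior DKO libraries were at 27.6, 28.6, 29.3 and 30.03 CPM and posterior DKO libraries at 8.84, 11.9, 6.09 and 6.81 CPM. The regions did not overlap in either genotype, and relative to their level the posterior values were more spread than the anterior ones. The posterior level was 0.337 times the anterior one in controls (0.261 to 0.434, log2 fold change -1.57, SE 0.169, edgeR adjusted p = 2.11e-05) and 0.294 times in DKO (0.221 to 0.392, adjusted p = 0.000112). Exons of Rarb overlap those of Top2b on the other strand over 1793 bp and those of Gm48162 over 227 bp, and the use of strand in counting is not stated, so some reads could belong to either gene. Top2b, a topoisomerase, differed between the pieces by -0.20 in controls (edgeR adjusted p = 0.0790, and 0.00420 with the embryo as a block) and by -0.29 in DKO (adjusted p = 0.0192). The DKO call was lost without DKO 1 (adjusted p = 0.0646) and without DKO 3 (0.0733).

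The promoters of Rarb and Rarg are shown because these receptors lay in opposite directions along the axis, and because the known retinoic acid element of Rarb falls inside the window. Each sequence is the 250 bases before a RefSeq transcript start of the gene (GRCm38.p6), read on the gene's strand at chr14:16575477-16575726 and chr15:102257523-102257772. Capitals mark a direct repeat of the last 5 bases of the receptor's recognition hexamer with 6 bases between the copies, searched on both strands as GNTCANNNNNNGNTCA. The first base of each hexamer was left free, so that of the first copy is the lower-case letter just before the capitals.
Rarb: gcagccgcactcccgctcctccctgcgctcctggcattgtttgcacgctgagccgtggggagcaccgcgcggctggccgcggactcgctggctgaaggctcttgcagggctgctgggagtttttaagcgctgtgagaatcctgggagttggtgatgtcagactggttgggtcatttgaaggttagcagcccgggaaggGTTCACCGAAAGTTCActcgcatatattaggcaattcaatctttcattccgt
Rarg: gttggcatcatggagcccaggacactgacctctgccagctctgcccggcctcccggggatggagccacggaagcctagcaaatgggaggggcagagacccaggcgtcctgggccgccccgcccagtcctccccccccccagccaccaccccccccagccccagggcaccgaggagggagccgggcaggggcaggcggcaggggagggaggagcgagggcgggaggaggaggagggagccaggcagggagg
The match in Rarb, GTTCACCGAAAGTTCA, lies 52 to 37 bases before the start, on the same strand as the gene. RefSeq windows from 250 bases before to 50 bases after a start were available for 8 of the 9 genes (18 windows). The set of windows used here held none for Crabp2. The repeat was in 1 of the 18 windows, and in 283 of all 32851 windows (0.8615%). Rarg has another RefSeq window, at a start further downstream, which is not shown and also held no match. An element outside these short windows would be missed, so they cannot show that Rarg lacks one. The core hexamer bound by MEIS proteins, TGACAG on either strand, was in 3 of the 18 windows, 1 each of Rara, Rarb and Rxrb, and in 19.18% of all windows. These are matches of letters only; no binding was measured here.

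Rara (ENSMUSG00000037992, chr11:98927818-98974942, plus strand), the most widely expressed form of the receptor, was lower in the posterior piece by a smaller step. Its anterior controls were at 69.5, 64.0, 60.4, 55.7 and 59.7 CPM and its posterior controls at 50.7, 39.7, 37.9, 36.8 and 35.6 CPM. Anterior DKO libraries were at 66.0, 61.5, 62.4 and 68.3 CPM and posterior DKO libraries at 37.4, 42.2, 39.7 and 42.7 CPM. The regions did not overlap in either genotype, though posterior control 1 came near the lowest anterior library. The posterior level was 0.651 times the anterior one in controls (0.565 to 0.750, edgeR adjusted p = 0.000352) and 0.628 times in DKO (0.569 to 0.693, adjusted p = 6.13e-05).

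Rxra (ENSMUSG00000015846, chr2:27676440-27762957, plus strand), the main heterodimer partner of the RAR proteins in many embryonic tissues, was lower by a like amount. It was at 112, 104, 105, 113 and 111 CPM in anterior controls and at 75.3, 65.8, 77.6, 80.1 and 73.8 CPM in posterior controls. In DKO it was at 121, 110.2, 115 and 117 CPM in the anterior and at 69.5, 85.3, 70.5 and 69.5 CPM in the posterior libraries. No posterior library reached an anterior one. The posterior level was 0.684 times the anterior one in controls (0.630 to 0.742, edgeR adjusted p = 1.10e-05) and 0.637 times in DKO (0.566 to 0.716, adjusted p = 0.000213).

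Rxrb (ENSMUSG00000039656, chr17:34031812-34038399, plus strand), a broadly expressed partner receptor, lay between 66.7 and 84.8 CPM in all 18 libraries. Its posterior level was 1.03 times the anterior one in controls (0.962 to 1.10, edgeR adjusted p = 0.558) and 1.04 times in DKO (0.938 to 1.16, adjusted p = 0.635). The interval in controls is narrow and spans no change. Rxrg (ENSMUSG00000015843, chr1:167598384-167639623, plus strand), known from muscle and parts of the nervous system, was near the limit of detection, with 6 to 42 counts per library. It was at 0.962 ± 0.225 CPM (SD, n = 5) in anterior controls and 0.462 ± 0.132 CPM (n = 5) in posterior controls, 0.488 times (0.319 to 0.746, edgeR adjusted p = 0.0168). That call was lost without control embryo 1 (adjusted p = 0.0533), 3 (adjusted p = 0.0648) or 4 (adjusted p = 0.0579), and with no filter on low counts (adjusted p = 0.0664). In DKO Rxrg was at 1.19 ± 0.0647 and 0.671 ± 0.269 CPM (n = 4 each, edgeR adjusted p = 0.0882). A count of 0 would have allowed up to 3 counts, or 0.0791 to 0.233 CPM depending on the library, counting error only, and every library was above its limit.

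Crabp1 (ENSMUSG00000032291, chr9:54764748-54773110, plus strand) encodes a carrier of retinoic acid that is strongly expressed in the embryonic hindbrain, spinal cord and neural crest, and it showed the widest step of the 9 genes in both genotypes. Anterior controls were at 586, 518, 509, 622 and 525 CPM and posterior controls at 127, 109, 137, 131 and 108 CPM. Anterior DKO libraries were at 724, 566, 739 and 640.0 CPM and posterior DKO libraries at 109.9, 132, 123 and 171 CPM. The lowest anterior library stood far above the highest posterior one. The posterior level was 0.222 times the anterior one in controls (0.196 to 0.251, log2 fold change -2.17, SE 0.0829, edgeR adjusted p = 1.10e-08) and 0.201 times in DKO (0.161 to 0.250, adjusted p = 4.37e-06). By p-value it ranked 6 of 15294 genes in controls.

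Crabp2 (ENSMUSG00000004885, chr3:87948666-87953376, plus strand), the form known to pass retinoic acid to nuclear receptors, had a smaller step. It was at 718, 688, 607, 741 and 700.2 CPM in anterior controls and at 311, 263, 304, 305 and 281 CPM in posterior controls. The DKO libraries were at 741, 708, 724 and 722 CPM in the anterior and at 336, 348, 284 and 427 CPM in the posterior piece. Again no posterior library reached an anterior one. The posterior level was 0.424 times the anterior one in controls (0.385 to 0.467, edgeR adjusted p = 6.68e-08) and 0.482 times in DKO (0.409 to 0.568, adjusted p = 8.94e-05). Rara, Rarb, Rxra, Rxrg, Crabp1 and Crabp2 were each lower in the posterior piece in 9 of 9 embryos.

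Stra6 (ENSMUSG00000032327, chr9:58063788-58153996, plus strand), the transporter that takes up retinol from its serum carrier, lay between 46.4 and 69.5 CPM in all libraries. Its posterior level was 0.951 times the anterior one in controls (0.861 to 1.05, edgeR adjusted p = 0.482) and 1.13 times in DKO (0.953 to 1.33, adjusted p = 0.343). It was higher in the posterior piece in 2 of 5 control embryos and in 4 of 4 DKO embryos, and the test of that difference is given with the genotype results.

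Marker genes of several cell types moved with the same contrast. All 12 genes of a neural tube list were lower in the posterior piece in both genotypes (edgeR adjusted p below 0.05). Their summed level was 808 to 1006 CPM in anterior controls and 314 to 464 CPM in posterior controls. Of 8 neural crest markers, 6 were lower in controls and 7 in DKO. All 11 axial bud markers were higher in the posterior piece in controls and 10 of 11 in DKO, with sums of 93.0 to 103 CPM in anterior and 474 to 800 CPM in posterior controls. Of the dermomyotome and myotome markers, 5 of 7 were lower in each genotype (1 was higher in controls). Higher in controls were 6 of 8 intermediate and lateral mesoderm markers (1 lower), 4 of 7 of gut endoderm (1 lower) and 4 of 8 of surface ectoderm; in DKO 4 of 7 (1 lower), 4 of 7 (1 lower) and 5 of 8 were. Of 10 sclerotome markers 3 were higher and 4 lower in controls, and 1 and 2 in DKO, with sums of 584 to 763 CPM in posterior and 668 to 736 CPM in anterior controls. Of 8 endothelial markers 2 were lower in controls and 1 in DKO, and none of 8 primitive erythroid markers passed. The erythroid estimates were below 0 in 8 of 8 in controls (median -0.70, 2 at an unadjusted p below 0.05). In DKO 8 of 8 were above 0 (median 0.50, 5 at such a p). All these counts are to be read against the 25.4% of all genes that passed in controls and the 18.5% in DKO. The endothelial counts lie near or below those shares. Markers of most of the listed cell types thus differed between the pieces, in the direction of Crabp1, Crabp2 and Rarb for some and in that of Rarg for others; their part in the results was not tested.

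Levels of different genes can be set side by side only per length, here as CPM per kb of merged exons. The order depends on the length used. With the mean transcript length Crabp1 had 44.2% of the CRABP sum in anterior controls and so fell below Crabp2. The order of genes of different families was not computed with that length. In anterior controls the order from high to low was Crabp1 (688 ± 61.8, SD, n = 5), Crabp2 (523 ± 38.7), Rxra (20.0 ± 0.819), Rxrb (17.8 ± 0.646), Rara (14.2 ± 1.19), Stra6 (9.44 ± 0.650), Rarb (5.46 ± 0.429), Rarg (5.18 ± 1.19) and Rxrg (0.419 ± 0.0979). Only the ranges of Rarb and Rarg overlapped among neighbours in this order. In posterior controls Crabp2 (221 ± 15.3) led Crabp1 (153 ± 16), and Rarg (18.8 ± 3.07) had moved up beside Rxrb (18.3 ± 0.820), whose ranges overlapped. Below them came Rxra (13.6 ± 0.991), Rara (9.20 ± 1.40) and Stra6 (8.97 ± 0.754), the last pair overlapping, then Rarb (1.85 ± 0.503) and Rxrg (0.201 ± 0.0575). The DKO libraries had the anterior order of the controls, and their posterior order differed only in that Stra6 and Rara, which overlapped, changed places.

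**Figure D2:**
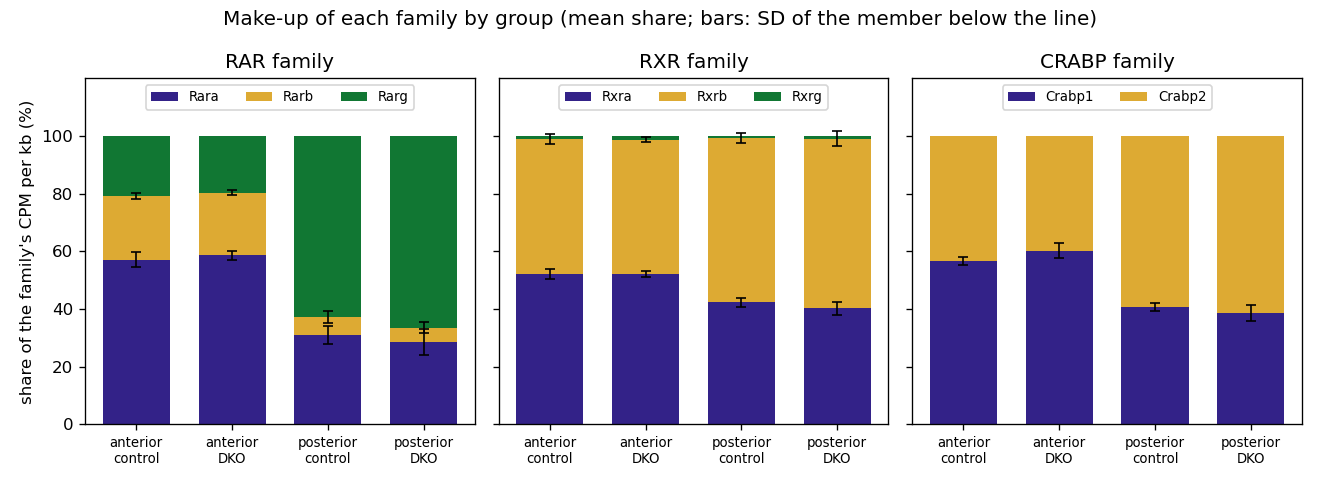
Share of each gene (vertical axis, %) in the summed CPM per kb of its family, as the mean over the libraries of each group, with the SD of the gene below each line. Rarg takes 20.8% of the RAR sum in anterior controls and 62.8% in posterior controls.

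The plot of family shares sets the same values against each family's own sum. Rara made up 57.2% ± 2.58 (SD, n = 5) of the RAR sum in anterior controls, Rarb 22.1% ± 1.08 and Rarg 20.8% ± 3.54. In posterior controls the shares were 30.9% ± 3.10, 6.36% ± 2.21 and 62.8% ± 4.59, so Rarg was the leading form there and Rara in the anterior piece. The sum itself was 24.8 ± 2.30 CPM per kb of merged exons in anterior and 29.8 ± 3.51 in posterior controls, with overlapping ranges. It was higher in the posterior piece in 5 of 5 control and 4 of 4 DKO embryos. The size of this difference and the overlap depend on the length used, and the sum was not computed with the mean transcript length. Within the RXR family Rxra had 52.2% ± 1.69 and Rxrb 46.7% ± 1.64 in anterior controls, against 42.4% ± 1.61 and 57.0% ± 1.71 in posterior controls. Crabp1 had 56.8% ± 1.39 of the CRABP sum in anterior and 40.7% ± 1.38 in posterior controls. With the mean transcript length in place of merged exons, Rxrb (49.9%) stood level with Rxra (49.5%) in anterior controls and Crabp1 fell behind Crabp2 there (44.2%). Rara and Rarg still led in their own regions, with 42.3% of the anterior and 73.9% of the posterior RAR sum. The shares in DKO lay within a few percentage points of the controls, with Rarg at 19.6% ± 1.65 in anterior and 66.4% ± 6.02 (n = 4) in posterior libraries.

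Loss of Meis1 and Meis2 was compared in each region separately. None of the 9 genes passed the test in either region, in edgeR, DESeq2 or limma-voom. In the anterior piece 0.0394% of the 15238 genes tested passed in edgeR (6 genes) and in the posterior piece 0.0126% of 15936 (2 genes), so few calls were made among any genes. At an unadjusted p below 0.05 there was 1 of 9 genes in the anterior piece, where 13% of all genes had such a p, and 1 of 9 in the posterior piece, where 11% had. No gene of the 9 had control and DKO libraries that did not overlap, as against 5.08% of all genes in the anterior and 4.27% in the posterior piece. In each region 7 of the 9 estimates were above 0, with a median log2 fold change of 0.07 in the anterior piece and 0.13 in the posterior piece, beside medians over all genes of 0.00 and 0.01. Among those above 0, anterior Rarb changed sign in 6 of 16 alternatives, posterior Rara in 5 and posterior Crabp1 in 1.

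**Figure D3:**
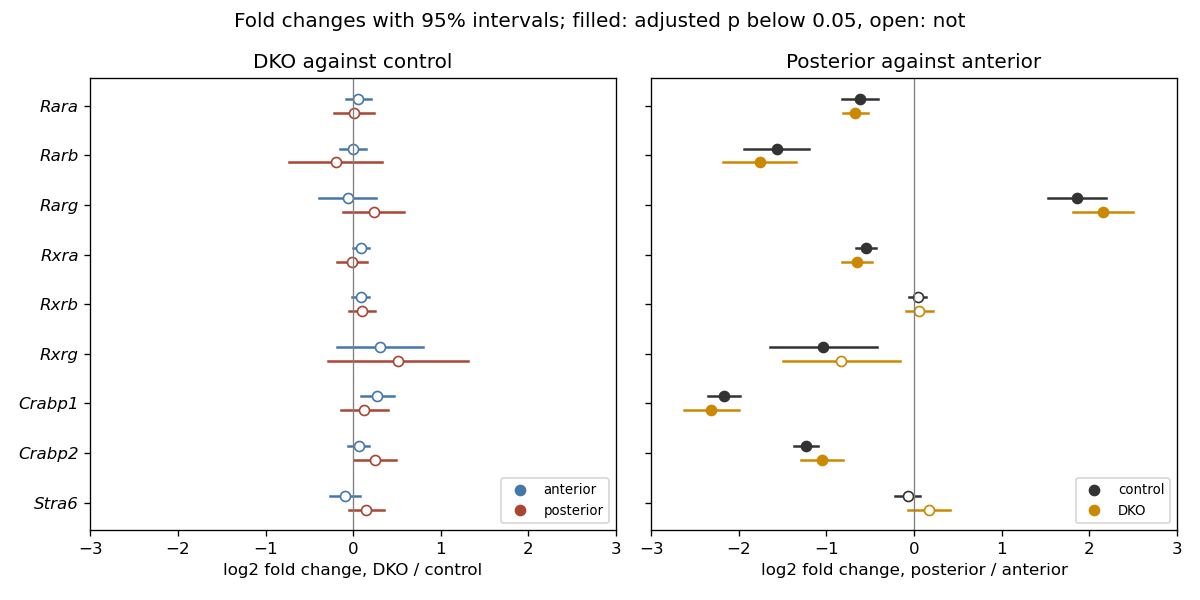
Log2 fold change of each gene (horizontal axis) with its 95% interval, for DKO against control by region on the left and posterior against anterior by genotype on the right; filled points passed at an adjusted p below 0.05. No point on the left is filled, while on the right 7 are filled in controls and 6 in DKO.

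The plot of fold changes puts both kinds of comparison on one scale. Crabp1 was the gene with an unadjusted p below 0.05 in the anterior piece, and Crabp2 that in the posterior piece. The anterior DKO level of Crabp1 was 1.21 times that of controls (95% interval 1.06 to 1.38, log2 fold change 0.27, SE 0.0858, edgeR adjusted p = 0.227), and the adjusted p lay between 0.0582 and 0.590 over the alternatives. The ranges overlapped, since anterior DKO 2 at 566 CPM was below the controls at 586 and 622 CPM. The neural tube list was also at a higher sum in anterior DKO (1049 to 1145 CPM) than in anterior controls, with 1 of its 12 genes past the test, 9 at an unadjusted p below 0.05 and all 12 estimates above 0 (median 0.32). No marker of the neural crest or sclerotome lists passed, but 8 of 8 neural crest estimates were above 0 (median 0.27, 5 at an unadjusted p below 0.05) and 8 of 10 sclerotome estimates below 0 (median -0.43, 7 at such a p). Axial bud estimates were above 0 for 5 of 6 markers (median 0.34, 3 at such a p), with sums of 116 to 151 CPM in DKO. Controls were at 93.0 to 103 CPM. Gut endoderm was above 0 in 5 of 7 (0.32, 2) and surface ectoderm in 7 of 8 (0.18, 2). Below 0 were 8 of 8 primitive erythroid (-0.70, 0), 7 of 8 endothelial (-0.15, 1) and 4 of 7 dermomyotome and myotome markers (-0.03, 3). So were 7 of 8 for intermediate and lateral mesoderm (-1.13, 2). None of these passed the test. The part of these cell types in the Crabp1 difference was not tested. Crabp2 was at 1.05 times the control level in the anterior piece (0.963 to 1.14, adjusted p = 0.654). In the posterior piece Crabp2 was at 1.19 times the control level (1.01 to 1.40, edgeR adjusted p = 0.451). In that piece estimates were above 0 for 12 of 12 neural tube markers (median 0.30, 3 at an unadjusted p below 0.05), 8 of 8 primitive erythroid (0.52, 5 at such a p) and 11 of 11 axial bud markers (0.18, 0 at such a p). They were below 0 for 9 of 10 sclerotome (-0.54, 6 at such a p) and 6 of 7 intermediate and lateral mesoderm markers (-0.76, 4 at such a p). Gut endoderm was above 0 in 6 of 8 (0.30, 3 at such a p) and surface ectoderm in 6 of 8 (0.21, 3). Neural crest was above 0 in 6 of 7 (0.09, 1). Endothelium was below 0 in 8 of 8 (-0.22, 0) and dermomyotome and myotome in 4 of 6 (-0.10, 1). Surface ectoderm sums were 253 to 315 CPM in posterior DKO and 181 to 246 CPM in posterior controls. None of these passed the test, and their part in the posterior values was not tested.

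For the receptors the estimates lay on both sides of no change. In the anterior piece the DKO to control ratio was 1.04 for Rara (0.948 to 1.15), 1.003 for Rarb (0.904 to 1.11) and 0.958 for Rarg (0.765 to 1.20). For the RXR genes there it was 1.06 for Rxra (0.996 to 1.13), 1.06 for Rxrb (0.995 to 1.13) and 1.24 for Rxrg (0.877 to 1.74). The intervals were narrowest for Rxra and Rxrb and widest for Rarg and Rxrg. In the posterior piece the ratio was 1.01 for Rara (0.859 to 1.18), 0.872 for Rarb (0.602 to 1.26) and 1.18 for Rarg (0.926 to 1.49). For the RXR genes it was 0.989 for Rxra (0.878 to 1.11), 1.07 for Rxrb (0.971 to 1.19) and 1.43 for Rxrg (0.820 to 2.48). Posterior intervals were thus wider for every receptor, widest for Rarb and Rxrg, the genes with the lowest counts there. Stra6 was at 0.939 times the control level in the anterior piece (0.833 to 1.06) and at 1.11 times in the posterior piece (0.966 to 1.28), and posterior Crabp1 was at 1.09 times (0.907 to 1.32). Single embryos moved several posterior estimates. Without DKO 3 the log2 fold change went from 0.23 to 0.044 for Rarg, from -0.20 to -0.073 for Rarb and from 0.15 to 0.059 for Stra6. Without DKO 2 that of Rarb was -0.41, and without DKO 4 that of Crabp2 was 0.13 in place of 0.25. Leaving out DKO 4 also changed the sign of posterior Crabp1, from 0.129 to -0.0196.

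Whether the effect of genotype differed between the regions was tested as an interaction over all 18 libraries. None of the 9 genes passed in edgeR, DESeq2 or limma-voom, none had an unadjusted p below 0.05, and 0% of the 16428 genes tested passed in edgeR, while 3.45% had an unadjusted p below 0.05. Stra6 had the smallest p of the 9, with a difference of log2 fold changes of 0.24 (SE 0.129, edgeR adjusted p = 0.999). The primitive erythroid markers had interaction estimates above 0 in 8 of 8 (median 1.19, 7 at an unadjusted p below 0.05), none past the test; their part in the values of the 9 genes was not tested. The regional distribution of the 9 genes was not shown to differ between control and DKO embryos.

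**Figure D4:**
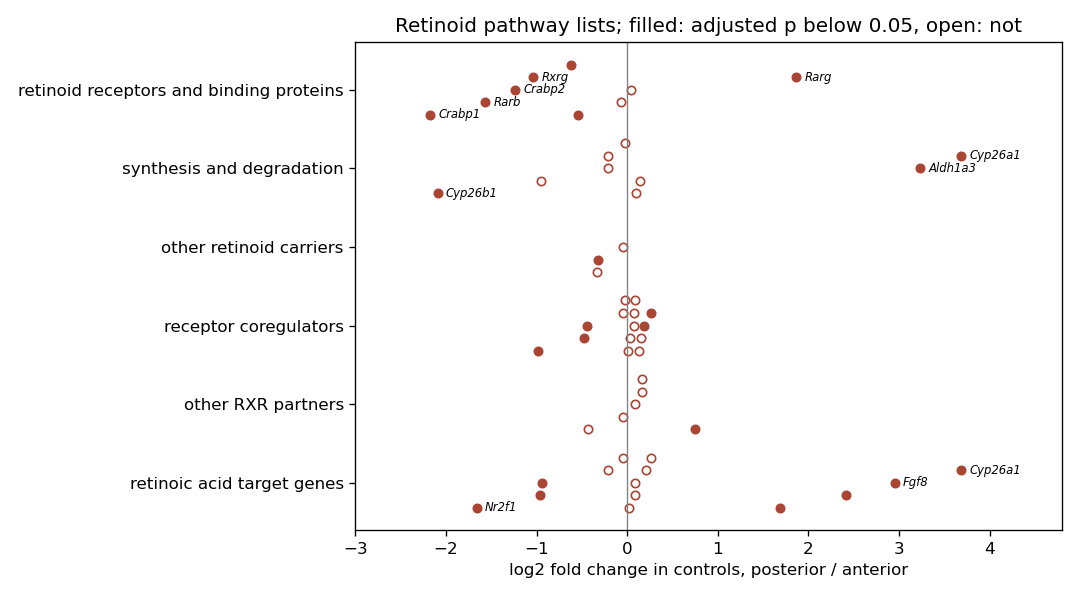
Log2 fold change of posterior against anterior controls (horizontal axis) for each tested gene of 6 lists of the retinoid pathway (rows; points are spread vertically only for legibility); filled points passed at an adjusted p below 0.05. The largest steps outside the 9 genes were those of Cyp26a1, Aldh1a3 and Fgf8 upward and Cyp26b1 downward.

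Other genes of the pathway were taken from 5 lists, drawn in the plot of pathway lists. Among 14 genes of retinoic acid synthesis and degradation, 9 were tested in controls, of which 2 were higher and 1 was lower in the posterior piece. The counts of this and the other lists are to be read against the 25.4% of all genes that passed in this comparison. Cyp26a1, the enzyme that clears retinoic acid from the tail bud, was at 3.44 ± 1.33 CPM (SD, n = 5) in anterior and 42.9 ± 5.42 CPM in posterior controls (log2 fold change 3.68, edgeR adjusted p = 1.37e-07). The synthesising dehydrogenase gene Aldh1a3 was higher by 3.23 (adjusted p = 6.19e-06) at a low level, 3.77 ± 0.919 CPM in posterior controls. Cyp26b1, a further degrading enzyme, was lower by a log2 fold change of -2.09 (adjusted p = 3.46e-06). The posterior piece, where Rarg was the leading form of the RAR family, thus also had the higher Cyp26a1.

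Among 8 other retinoid carriers 3 were tested, and Fabp5, a lipid carrier that can also bind retinoic acid, was lower in the posterior piece (-0.32, edgeR adjusted p = 0.00380). Of 14 receptor coregulators, 2 were higher and 3 were lower. The corepressor subunit gene Tbl1x (0.18, edgeR adjusted p = 0.0187) was among the higher ones, and Kat2b (-0.99, adjusted p = 0.00221), Ncoa1 (-0.48, adjusted p = 0.00296) and Nrip1 (-0.44, adjusted p = 0.00487) the lower ones. The steps of the coregulators were small beside those of Rarg, Rarb and Crabp1, with Kat2b as the largest. Leaving out control embryo 3 or 5 left 3 of these 5 calls, and over all alternatives the list had 3 to 7. Tbl1x was lost without embryo 3, 4 or 5 (adjusted p up to 0.0834). Of 11 other partners of RXR, 6 were tested and 1 passed, the oxysterol receptor gene Nr1h3 (0.75, adjusted p = 0.0382). It no longer passed without control embryo 1, 2, 3 or 4 (adjusted p up to 0.155), in limma-voom (0.0524) or with no filter on low counts (0.0798), and with the embryo as a block 3 genes of that list passed.

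Among 15 genes known to respond to retinoic acid, 14 were tested, of which 4 were higher and 3 lower in the posterior piece of controls. Cyp26a1 and Fgf8 (2.95, edgeR adjusted p = 8.12e-07), a growth factor of the tail bud, had the largest steps upward. Nr2f1 (-1.66, adjusted p = 4.96e-07), Hoxb4 (-0.96, adjusted p = 8.12e-07) and Tshz1 (-0.94, adjusted p = 0.000222) were the lower ones. The list holds genes that retinoic acid raises and genes that it lowers, Fgf8 among the latter, so its count has no single direction. In DKO 5 were higher and 3 lower. Between the genotypes none of the 5 lists had a gene past the edgeR test as fitted here, in either region or in the interaction. At an unadjusted p below 0.05 there were 3 of 8 genes of synthesis and degradation in the anterior and 3 of 10 in the posterior piece, and 4 and 5 of 14 target genes. For the other carriers there were 0 of 3 and 2 of 4, for the coregulators 1 and 2 of 14, and for the other RXR partners 1 of 6 and 0 of 7. Of all genes tested, 13% in the anterior and 11% in the posterior piece had such a p, so the counts of coregulators and RXR partners lie near or below that share. DESeq2 called 2 genes of synthesis and degradation in the anterior piece and 1 of the other carriers in the posterior piece. In the anterior piece the nearest were Aldh1a2, the main synthesising enzyme of the somites, at 135 ± 30.8 CPM in controls and 69.0 ± 13 CPM in DKO (-0.97, edgeR adjusted p = 0.0641), and Cyp26b1 (-1.03, adjusted p = 0.0659). This pair was named after its values were seen, and both are the DESeq2 calls of that piece (adjusted p = 0.000786 and 3.87e-05). In edgeR both also passed with no filter on low counts (0.00913 and 0.0177), and Aldh1a2 alone with sex label and somite number as covariates (0.0391) and with all 18 libraries in one fit (0.0336). Leaving out any one embryo gave 0 calls on that list, as with all embryos, at log2 fold changes of -1.06 to -0.84 for Aldh1a2 and -1.09 to -0.88 for Cyp26b1. Intermediate and lateral mesoderm estimates in the same piece were below 0 for 7 of 8 markers (median -1.13, 2 at an unadjusted p below 0.05), as were 8 of 10 for sclerotome (median -0.43); none passed, and their part in these values was not tested.

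For the genes past the test in both genotypes, likeness of pattern was measured as the root mean square difference between log2 CPM profiles over the 18 libraries, each centred on its own mean, among 11816 protein-coding genes. Nearest to Rarg (own root mean square 1.02) were Lef1 (0.203), Prickle1 (0.217) and Etv5 (0.223). Nearest to Rarb (own value 0.897) were Pou3f2 (0.189), Tmtc2 (0.195) and Lrrn1 (0.197), and Pou3f2 is one of the neural tube markers above. Crabp1 (own value 1.14) had Rai2 (0.239), Lrrc4b (0.242) and Apba2 (0.242) as nearest, and Crabp2 (own value 0.601) had Ncald (0.139), Rasl10b (0.142) and Cnih2 (0.161). For Rara (own value 0.347) they were Limk1 (0.103), Id3 (0.114) and Msi1 (0.124), and for Rxra (own value 0.313) Myo18a (0.0876), Zswim5 (0.102) and Msi1 (0.105). The libraries share their region and embryo, so these distances are a description with no test.

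Posterior values of Rarb and Rarg were set against the somite number of the embryo, a comparison chosen after their values were seen, so it is a description of these embryos. The posterior libraries of the 20-somite embryos had the lowest Rarb of each genotype, 5.48 CPM in control 2 and 6.09 CPM in DKO 3, and the highest Rarg, 95.8 and 129.5 CPM. Those of 24 somites had the highest Rarb of each genotype, 12.5 CPM in control 3 and 11.9 CPM in DKO 2. Their Rarg, 73.9 and 78.7 CPM, was the lowest in DKO but not in controls, where control 5 with 23 somites was at 61.1 CPM. With genotype as a covariate, Rarb had a slope of 0.22 log2 units per somite (SE 0.0526, edgeR adjusted p = 0.232) and Rarg one of -0.14 (SE 0.0334, adjusted p = 0.264). Neither passed in edgeR, where 0.0126% of all genes did, and 2 of the 9 genes had an unadjusted p below 0.05, as had 6.42% of all genes. DESeq2 called both (adjusted p = 0.0145 for Rarb and 0.0229 for Rarg), and 0.922% of all genes. In the anterior piece none of the 9 passed, against 0.0328% of all genes in edgeR, and none had an unadjusted p below 0.05. In the posterior libraries slopes were above 0 for all 12 neural tube, 7 neural crest, 10 sclerotome, 6 dermomyotome and myotome, 8 endothelial and 8 primitive erythroid markers tested. They were below 0 for all 11 axial bud markers, and none passed; their part in the slopes was not tested.

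**Figure D5:**
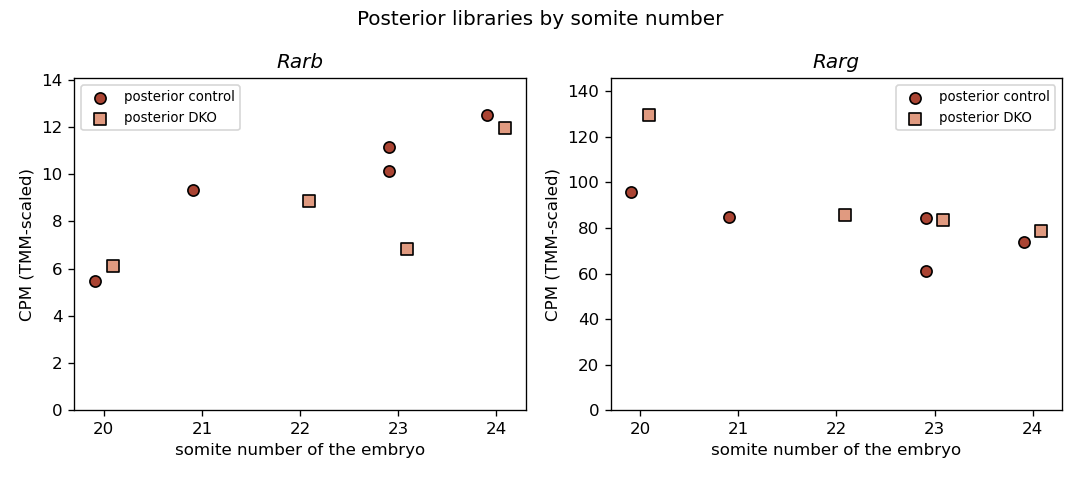
Posterior level of Rarb and Rarg (vertical axes, TMM-scaled CPM from 0) in 9 embryos by somite number (horizontal axis; genotypes are set slightly apart sideways), controls as circles and DKO as squares. The 20-somite embryos have the lowest Rarb of their genotype (5.48 and 6.09 CPM) and the highest Rarg (95.8 and 129.5 CPM).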

How the data were processed

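Single-end reads of 61 bp came from NEBNext libraries of poly(A) RNA, per the labels. The authors deposited expected counts from RSEM for each Ensembl gene on GRCm38, not normalised; CASAVA, cutadapt and RSEM are named in the submitters' processing notes, and their versions and the use of strand are not given in the sources used here. Of 53465 gene rows, 53360 matched GENCODE M21. Counts were rounded and fitted over the whole table in R 4.3.3 with edgeR 4.0.16 (filterByExpr with a minimum count of 10, TMM, glmQLFit and glmQLFTest, no covariates, Benjamini-Hochberg over all genes tested, threshold 0.05). The SE is the log2 fold change divided by the square root of F. DESeq2 1.42.0, limma-voom 3.58.1, other scalings, filters and covariates, and leaving out each embryo were alternatives; the scripts were tested on simulated data.

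The pieces of an embryo were matched by genotype, sex label and somite number. Deviations from the group means correlated at 0.256 to 0.570 over genes in 9 same-embryo pairs and at -0.283 to 0.0916 in 32 pairs of different embryos of the same genotype, so the embryo was a block in an alternative. Depth was 12.7 to 38.2 megacounts per library. The members and gene lists were chosen with earlier results of these data known. The 9 members, Meis1 and Meis2 are named throughout. From each pathway list the text names the 3 highest and 3 lowest genes past the threshold in the regional comparison of controls, except that some of them are not reported here. For likeness it names the 3 nearest protein-coding genes with a mean of at least 50 counts. Promoter sequences are from RefSeq (GRCm38.p6).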

Additional observations from a re-analysis of the deposited data

Results flagged for a closer look

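In 3 of 36 groups of libraries (9 genes in 4 groups) a single library stood apart from the rest of its group by Dixon's criterion, where chance gives about 1.8. Rara was at 50.7 CPM in posterior control 1, the gap to the next library being 0.733 of the group's range. Rarg was at 129.5 CPM in posterior DKO 3 (0.866 of the range), and Rxra at 85.3 CPM in posterior DKO 2 (0.936 of the range).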

How the results depend on the processing

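The counts of the 9 genes past the test stayed within 1.5 times of those reported under every other scaling, test, filter, set of covariates and set of libraries tried: 0 for DKO against control in each region and for the interaction, 6 to 7 for posterior against anterior in controls and 6 in DKO. With the embryo as a replicate block they were 7 in controls, 6 in DKO and 0 for the interaction, and the block changed no call on the 9 genes. Leaving out each embryo in turn gave 6 to 7 in controls, 6 in DKO and 0 elsewhere. DESeq2 called 2 of the 9 genes for the posterior slope on somite number, where edgeR called 0; the cause was not tested.

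Estimates of DKO against control that lay near 0 changed sign. For anterior Rarb limma-voom gave -0.0020 on the log2 scale. Leaving out each embryo in turn gave -0.0179 to 0.0511 for anterior Rarb, -0.152 to 0.0558 for anterior Rarg, -0.0295 to 0.109 for posterior Rara, -0.0925 to 0.00936 for posterior Rxra and -0.0196 to 0.210 for posterior Crabp1. For the interaction it gave -0.0159 to 0.0763 for Rxrb and -0.0595 to 0.439 for Rxrg. Other posterior estimates kept their sign but moved by more than 1.5 times when an embryo was left out, with -0.414 to -0.0727 for Rarb, 0.0444 to 0.314 for Rarg, 0.0538 to 0.145 for Rxrb, 0.269 to 0.705 for Rxrg, 0.131 to 0.339 for Crabp2 and 0.0590 to 0.205 for Stra6. So did anterior Rara (0.0260 to 0.107), Rxrg (0.200 to 0.418), Crabp2 (0.0220 to 0.0923) and Stra6 (-0.172 to -0.0412), and the interaction estimates of Rara, Rarb, Rarg, Rxra, Crabp1 and Crabp2. None of these passed the test in any setting.

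Family shares in controls depend on the length used. With the mean transcript length they were, in the anterior and then the posterior piece, 42.3% and 19.2% for Rara, 29.2% and 73.9% for Rarg, 49.5% and 39.6% for Rxra, 49.9% and 60.1% for Rxrb, 0.524% and 0.293% for Rxrg, and 44.2% and 29.2% for Crabp1. Rarb had 28.5% of the anterior sum. The low counts of Rxrg, 6 to 42 per library, limit what can be said of it.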
